A study of Homo sapiens with 8 samples.

Results

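The BRCA1-null and BRCA1+ ovarian cancer cells of this study were compared in the DMSO vehicle alone, across all named genes that passed a filter on low counts. The 4 control libraries of the series' 8 entered the comparison, 2 from each line, and 17714 of 25369 named genes were tested. The wider study asked how BRCA1 status shapes expression and the response to entinostat, a histone deacetylase inhibitor given to the other 4 libraries at 0.5 uM for 24 h. UWB1.289 is a human ovarian carcinoma line without functional BRCA1, and the libraries titled BRCA1 Null are labelled with it, though the labels do not say whether the cells were parental or carried an empty vector. The BRCA1+ libraries come from a single derived line, UWB1.289 transduced with wild-type BRCA1, so any other way in which that line came to differ cannot be told apart from BRCA1 itself. The labels do not say whether the 2 libraries of a group were separate cultures, so the p-values measure only the spread between these libraries, which may be technical.

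BRCA1 works in the repair of DNA breaks by homologous recombination, in the protection of replication forks and, with its partner BARD1, as a ubiquitin ligase, and it also binds chromatin and transcriptional complexes. Ovarian serous carcinoma cells keep epithelial features such as keratins and EPCAM together with PAX8, a transcription factor of the Mullerian duct, and they can hold mesenchymal genes at the same time. The genes described here make up cell adhesion and matrix, cytokine and growth factor signalling, lipid synthesis, the cell cycle and DNA repair, followed by genes that were present in only one of the lines.

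Total counts were 40896050 and 46970431 in the BRCA1+ control libraries and 44268510 and 53549893 in the BRCA1-null control libraries. BRCA1 itself had 3954 and 4239 counts in the BRCA1+ libraries and 954 and 1218 in the BRCA1-null libraries, so the labels and the targeted gene went the same way. The epithelial markers EPCAM, KRT8, KRT18 and KRT19 were expressed in all 4 libraries, EPCAM at 506 to 552 CPM (read counts per 1000000 reads of the scaled library size), and so were the Mullerian markers PAX8 (329 to 419 CPM) and SOX17 (80.4 to 99.6 CPM). WT1 and ESR1, which many serous carcinomas express, lay at or below 0.50 CPM in every library. Of the 6 epithelial markers followed, KRT8 was the 1 called higher in BRCA1-null cells, and 2 were lower, CDH1 among them. Of the 10 Mullerian and serous markers followed, MECOM was the 1 called higher, and the 2 lower were WT1 and ESR1. Markers of other cell types were followed as lists, with each sum taken over all members, named here or not. Of 9 mesenchymal or fibroblast markers, COL3A1, DCN and LUM had 0 counts in all 4 libraries, which allows up to 0.0552 to 0.0750 CPM. VIM, COL1A1, COL1A2 and THY1 were called higher in BRCA1-null cells. The summed level was 64.4 and 65.6 CPM in BRCA1+ and 256 and 240.0 CPM in BRCA1-null libraries. Most of each sum was VIM alone, at 46.1 and 52.1 CPM against 200 and 201 CPM. Of 6 immune markers, MS4A1 had 0 counts, CD68 (from 9.43 and 8.59 CPM to 22.0 and 20.4 CPM) and LYZ were higher, CD14 was lower and PTPRC (2.23 to 3.64 CPM) was not called, with sums of 15.9 and 15.7 against 27.5 and 26.5 CPM. The endothelial list had 3 of 4 markers higher (VWF, KDR and the cadherin CDH5, the last from 4.15 and 6.82 CPM to 26.8 and 46.7 CPM), PECAM1 was not called, and the sums were 9.48 and 16.2 against 36.6 and 54.3 CPM. Of 3 melanocyte markers, TYR had 0 counts and PMEL was higher, with sums of 1.42 to 3.55 CPM. No neural or red cell marker was called, and their sums were at most 1.21 and 0.0436 CPM. The calls of COL1A2, LYZ, KDR and PMEL were not kept in every alternative fit. Across those fits their log2 fold changes ran from 0.93 to 1.68, 0.54 to 1.68, 1.38 to 2.59 and 0.72 to 1.31. The part of other cell types in the results was not tested.

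A gene was called when its adjusted p-value was under 0.05 (quasi-likelihood test of edgeR, adjusted over all tested genes by the Benjamini-Hochberg method, as for every adjusted p given here). This held for 7472 genes (42.2%), with 3745 (21.1%) higher and 3727 (21.0%) lower in BRCA1-null cells, so the calls were evenly split by direction. Large differences were not even. A log2 fold change of at least 1 was called higher for 1499 genes (8.46%) and lower for 705 (3.98%). The median log2 fold change, always BRCA1-null minus BRCA1+, was 0.012 over all tested genes. The plot of 46 gene lists shows where the members departed from these shares.

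**Figure D1:**
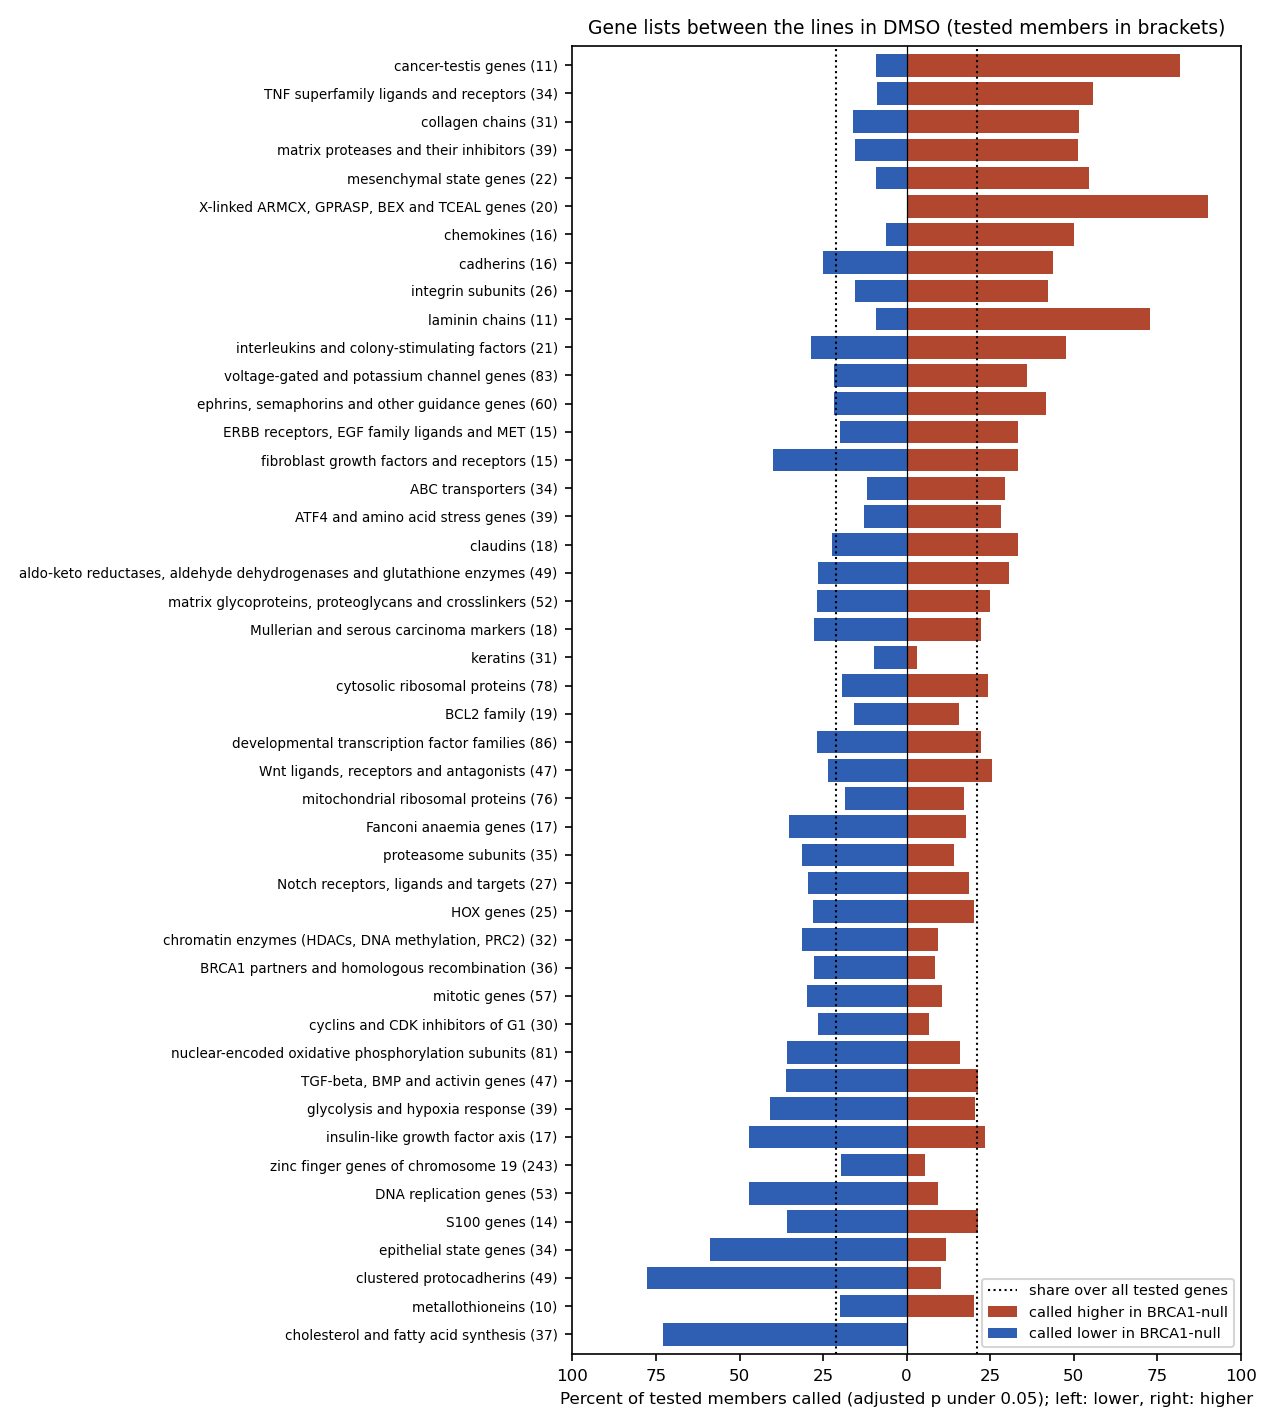
Share of tested members called higher (right, red) or lower (left, blue) in BRCA1-null than in BRCA1+ cells for 46 gene lists, ordered by their median log2 fold change, with the number of tested members in brackets. Dotted lines mark the shares over all tested genes, 21.1% higher and 21.0% lower. The X-linked ARMCX, GPRASP, BEX and TCEAL genes had members on the higher side only, and the cholesterol and fatty acid genes on the lower side only.

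Collagens, laminins and matrix proteases had more members higher than lower in BRCA1-null cells, and the matrix glycoproteins did not. In such bulk RNA, more cells expressing a gene and more RNA per cell cannot be told apart. Of 31 tested collagen chains, 16 were higher and 5 lower, with a median log2 fold change of 0.82. COL6A2, a chain of the beaded filament collagen VI, measured 0.725 and 0.697 CPM in the BRCA1+ libraries and 143 and 145 CPM in the BRCA1-null libraries. Its log2 difference was 7.66 ± 0.118 (SE, as for all log2 differences), with an adjusted p of 1.53e-09. COL6A1, which joins it in the collagen VI trimer and lies beside it on chromosome 21, went from 1.03 and 0.893 CPM to 179 and 148 CPM. Both chains were low in one line and abundant in the other. COL26A1 went the other way, from 21.7 and 24.1 CPM to 1.10 and 1.12 CPM (-4.37 ± 0.148, adjusted p 2.21e-07), and COL9A2, a chain of a cartilage collagen, fell by 1.54 on the log2 scale. In the entinostat libraries of the same lines, all 21 collagens called in DMSO were called again in the same direction, against 76.3% of all called genes. That comparison used other libraries. It shared the lines, the filter and the estimate of the spread over all 8 libraries, so it is not an independent replication.

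Laminins, the trimers of basement membranes, followed the same side, with 8 of 11 chains higher and 1 lower (median 0.61). LAMA3 and LAMB3, chains of epithelial basement membranes, were higher by 1.11 ± 0.0831 and 1.58 ± 0.160. LAMA4, a chain of endothelial and mesenchymal basement membranes, rose from 6.0 and 6.1 CPM to 52.1 and 55.5 CPM, while the embryonic chain LAMA1 fell from 11.4 and 11.1 CPM to 2.90 and 2.41 CPM.

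The glycoproteins, proteoglycans and crosslinking enzymes of the matrix were called in both directions, 13 of 52 higher and 14 lower, with a median of 0.056. EFEMP1 (fibulin-3) was higher by 2.20 ± 0.0885 and TGFBI, an integrin-binding matrix protein, by 2.03 ± 0.253. FBN2, a microfibril protein, fell from 60.1 and 50.2 CPM to 8.35 and 7.60 CPM, and the basement membrane linker NID2 fell from 273 and 225 CPM to 54.1 and 24.9 CPM. Proteases and inhibitors that remodel the matrix were higher for 20 of 39 members and lower for 6 (median 0.80, or 0.91 without chromosome 5). The gelatinase MMP2 stood at 0.400 and 0.327 CPM in BRCA1+ and at 44.0 and 45.4 CPM in BRCA1-null cells (6.94 ± 0.201, adjusted p 1.06e-07). The protease ADAMTS6 was higher by 4.13 ± 0.493. TIMP3, an inhibitor of these proteases, fell by 1.88 ± 0.243 on the log2 scale, although it overlaps SYN3 and its counts may hold reads of that gene.

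Integrins, the receptors that bind these proteins, were higher for 11 of 26 subunits and lower for 4 (median 0.64). ITGA5, the fibronectin receptor subunit, went from 4.58 and 3.86 CPM to 68.6 and 79.5 CPM (4.14 ± 0.146, adjusted p 2.49e-07). ITGA3, a laminin receptor subunit, rose from 138 and 104 CPM to 561 and 572 CPM. ITGB3, a subunit of the vitronectin receptor, fell from 242 and 234 CPM to 89.8 and 87.1 CPM, and the leukocyte integrin subunit ITGB2 fell by 1.02 ± 0.0927 on the log2 scale. The lines therefore differed in which integrin subunits they carried and not in one direction alone. ITGB1, the most shared beta subunit, was at 790 to 957 CPM in the 4 libraries and was not called (-0.17 ± 0.0680, adjusted p 0.0686).

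**Figure D2:**
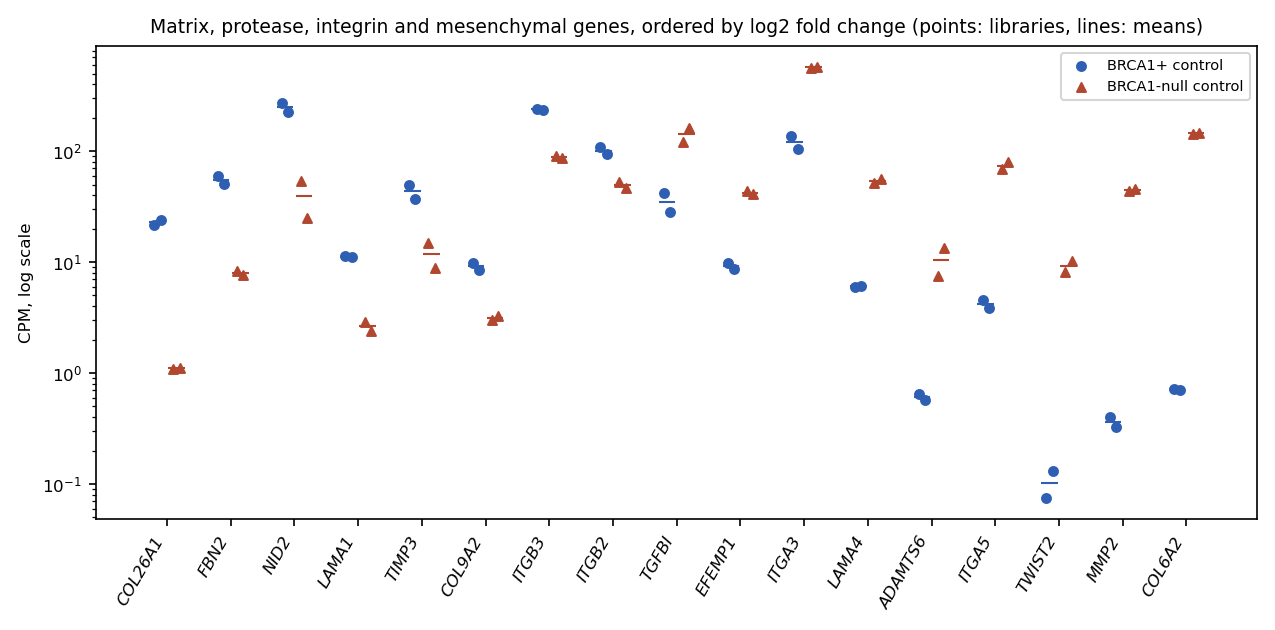
CPM (log scale) in each DMSO library for matrix, protease, integrin and mesenchymal genes, ordered from the most negative to the most positive log2 fold change; blue circles are the 2 BRCA1+ libraries, red triangles the 2 BRCA1-null libraries and short lines the means. Genes were drawn only where the groups did not overlap. COL26A1 is the lowest and COL6A2 the highest in order, with 0.697 to 0.725 CPM in BRCA1+ and 143 to 145 CPM in BRCA1-null libraries.

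Genes of the epithelial state were lower in BRCA1-null cells for 20 of 34 members and higher for 4, or 2 without replicate 2 of BRCA1-null control (median -0.26, or -0.22 without chromosome 5), and genes of the mesenchymal state were higher for 12 of 22 and lower for 2 (median 0.79, or 0.68 without chromosome 5). The size of the differences was unlike. GRHL1, an epithelial transcription factor, went from 26.4 and 27.3 CPM to 15.7 and 13.8 CPM (-0.86 ± 0.0880), the largest decrease in its list. VIM, the intermediate filament vimentin, rose from 46.1 and 52.1 CPM to 200 and 201 CPM (2.02 ± 0.0765, adjusted p 4.08e-07). TWIST2, a transcription factor of mesenchyme, had 0.0750 and 0.131 CPM in BRCA1+ and 8.22 and 10.2 CPM in BRCA1-null libraries. CDH1 (E-cadherin) measured 56.7 and 52.1 CPM against 42.9 and 34.8 CPM (-0.49 ± 0.125, adjusted p 0.0121), and it lost the call without replicate 1 of BRCA1+ control (-0.43) or without replicate 2 of BRCA1-null control (-0.34). CDH2 (N-cadherin), listed with the mesenchymal genes, fell by 0.30 ± 0.0784 on the log2 scale and lost its call without replicate 2 of BRCA1+ control (-0.28) or replicate 1 of BRCA1-null control (-0.17). EHF, an epithelial transcription factor of the ETS family, moved against its list, from 2.00 and 1.33 CPM to 71.6 and 51.5 CPM (5.22 ± 0.287, adjusted p 2.89e-06).

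Among other junction genes, claudins were higher for 6 of 18 (3 without either BRCA1+ library) and lower for 4, with CLDN6, an embryonic claudin, falling from 36.5 and 32.7 CPM to 4.29 and 2.59 CPM and CLDN11 rising from 3.68 and 4.64 CPM to 37.3 and 40.6 CPM. Keratins were called for 4 of 31 members (12.9% against 42.2% of all genes), 1 higher and 3 lower, and without replicate 2 of BRCA1+ control 5 were higher and 2 lower. Of 16 cadherins, 7 were higher and 4 lower. CDH6, a cadherin of kidney and ovarian carcinoma, fell from 294 and 286 CPM to 83.8 and 51.3 CPM. The Mullerian and serous carcinoma markers were split (4 of 18 higher, 5 lower, median 0.054). Of these, SLC34A2, a phosphate transporter used as a serous carcinoma antigen, fell from 375 and 380 CPM to 84.3 and 41.2 CPM. MECOM and MUC1 went the other way, higher by 1.45 ± 0.301 and 1.97 ± 0.502. The 49 tested clustered protocadherins, neuronal adhesion genes on chromosome 5, were lower for 38 and higher for 5 (2 without replicate 2 of BRCA1+ control), with a median of -0.37. Their alpha and gamma genes share 3' exons and their deposited positions overlap, so the values of single members are uncertain and the 38 cannot be counted as separate measurements. The 5 higher members, PCDHB8, PCDHB9, PCDHB11, PCDHB16 and PCDHB17, were beta genes, of which PCDHB8 was higher by 2.53 ± 0.432 at under 1 CPM. The 773 other tested genes of chromosome 5 were lower for 427 members, with a median of -0.49.

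Chemokines, interleukins and TNF superfamily genes had more members higher than lower in BRCA1-null cells, and the S100 genes did not. The ligands and receptors of the TNF superfamily had 19 of 34 members higher and 3 lower. Their median was 1.18 and stayed between 0.95 and 1.22 in every alternative. TNFRSF8 (CD30), a receptor of activated lymphocytes, went from 0.10 and 0.087 CPM to 5.76 and 6.27 CPM (5.97 ± 0.341, adjusted p 2.98e-06), and the ligand TNFSF18 from 0.775 and 1.44 CPM to 12.4 and 10.4 CPM. The ligand TNFSF9 fell from 3.30 and 3.66 CPM to 0.681 and 0.515 CPM, and the death receptor FAS fell by 0.58 ± 0.0914 on the log2 scale. Chemokines were higher for 8 of 16 and lower for 1 (median 0.73, or 0.90 without chromosome 5), or higher for 5 without either BRCA1+ library, with CX3CL1 higher by 2.88 ± 0.345 and CXCL5, a neutrophil attractant, by 1.82 ± 0.378. Of the small calcium-binding S100 proteins, 3 of 14 were higher and 5 lower (2 without replicate 1 of BRCA1+ control, 3 without either BRCA1-null library). Interleukins and colony-stimulating factors were higher for 10 of 21 and lower for 6 (median 0.59). IL23A, a cytokine subunit, was higher by 2.04 ± 0.213, and IL12A, a subunit of the related cytokine IL-12, fell by 1.25 ± 0.194 on the log2 scale.

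Growth factor pathways held large differences in single genes, and their list medians lay between -0.17 (insulin-like growth factors) and 0.27 (ERBB). Of the insulin-like growth factor axis 47.1% were lower and 23.5% higher. Of the TGF-beta, BMP and activin list 36.2% were lower and 21.3% higher, against 21.0% and 21.1% of all genes. IGFBP5, which binds insulin-like growth factors outside the cell, fell from 432 and 511 CPM to 6.53 and 5.63 CPM (-6.28 ± 0.171, adjusted p 7.91e-08), and the insulin receptor INSR fell from 6.10 and 5.32 CPM to 0.945 and 0.681 CPM. PAPPA2, a protease that cleaves IGFBP5, rose from 1.65 and 2.24 CPM to 14.4 and 16.7 CPM. IGF1R, the main receptor of this axis, was at 67.9 to 76.2 CPM and was not called (0.12 ± 0.0589, adjusted p 0.131). In all, 4 of the 17 axis members were higher and 8 lower. In the TGF-beta, BMP and activin list, 10 of 47 were higher and 17 lower, and the 10 became 5 without replicate 2 of either group. INHBA, the activin A subunit, was higher by 4.85 ± 0.243 and the signal transducer SMAD3 by 1.49 ± 0.110, whereas the ligand TGFB2 fell by 2.42 ± 0.214 and the BMP target ID3 fell by 2.34 ± 0.380.

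For the Wnt ligands, receptors and antagonists, 12 of 47 were higher and 11 lower. The antagonist DKK1 rose from 34.2 and 45.1 CPM to 220 and 208 CPM, and DKK3 was higher by 2.03 ± 0.119, while NOTUM, an enzyme that inactivates Wnt ligands, fell from 13.1 and 10.4 CPM to 0.440 and 0.147 CPM (-5.37 ± 0.323). Notch genes numbered 5 of 27 higher and 8 lower. Of the fibroblast growth factors and receptors, 5 of 15 were higher and 6 lower (median 0.26, or 0.43 without chromosome 5). The sign of this median changed in 3 of 12 alternatives, to -0.058 without replicate 2 of BRCA1-null control. FGF2 was higher by 2.94 ± 0.139, and FGF12, an intracellular member, fell from 47.2 and 51.0 CPM to 14.1 and 15.1 CPM. Among the ERBB receptors, EGF family ligands and MET, 5 of 15 were higher and 3 lower, the latter 1 with upper-quartile scaling or without replicate 1 of BRCA1+ control or either BRCA1-null library. MET, the receptor of hepatocyte growth factor, rose from 408 and 380 CPM to 779 and 674 CPM, and the ligand NRG1 fell by 0.99 ± 0.0730. EGFR itself stood at 220 to 250 CPM and was not called (0.13 ± 0.118, adjusted p 0.416).

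Ephrins, semaphorins and other guidance genes, first known from growing axons, were higher for 25 of 60 and lower for 13 (median 0.30). EFNB1, a membrane-bound ligand of Eph receptors, went from 14.9 and 10.7 CPM to 195 and 194 CPM (3.93 ± 0.160, adjusted p 5.46e-07), and SEMA3E from 1.30 and 1.79 CPM to 14.5 and 16.5 CPM. SEMA6A fell from 8.81 and 7.95 CPM to 1.80 and 1.07 CPM. Voltage-gated and potassium channel genes were higher for 30 of 83 and lower for 18 (median 0.36, or 0.48 without chromosome 5), although 15 were higher without replicate 2 of BRCA1+ control and 19 without replicate 2 of BRCA1-null control. CACNA1A, a calcium channel pore, was higher by 4.79 ± 0.274 and KCNN4, a calcium-activated potassium channel, rose from 3.03 and 3.16 CPM to 23.3 and 23.1 CPM. KCNIP1, which regulates A-type potassium channels, fell from 58.0 and 83.5 CPM to 3.19 and 3.61 CPM. The retinal lipid transporter ABCA4 showed one of the sharpest decreases of an abundant gene, from 220 and 218 CPM to 7.03 and 5.87 CPM (-5.09 ± 0.175, adjusted p 2.33e-07), within an ABC transporter list that had 10 of 34 members higher and 4 lower.

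Genes of cholesterol and fatty acid synthesis were lower in BRCA1-null cells for 27 of 37 tested members and higher for 0, and the fitted difference of every member was below 0 (median -0.51), so that 0 members were higher at an unadjusted p under 0.05 either. DESeq2's Wald test called 25 lower and 0 higher. These genes are known as joint targets of the transcription factors SREBF1 and SREBF2, which act when sterols in the cell run low. ACSS2, which makes acetyl-CoA from acetate, fell from 107 and 75.2 CPM to 30.0 and 34.2 CPM (-1.50 ± 0.167, adjusted p 1.28e-04). HMGCS1, which makes the HMG-CoA of this pathway, fell from 184 and 160 CPM to 93.9 and 89.9 CPM (-0.90 ± 0.117). The groups did not overlap for either gene. SREBF2 fell by 0.44 ± 0.0888 (adjusted p 0.00375), and SREBF1, at 105 and 108 CPM against 90.8 and 100 CPM, was not called (-0.15 ± 0.0873, adjusted p 0.199). HMGCS1 and STARD4 are among the members on chromosome 5. Outside that chromosome 24 of 34 members were lower and 0 higher, with a median of -0.49, against a median of 0.024 over the 16892 tested genes outside it. In the entinostat libraries 22 of the 27 (81.5%) were called lower again, near the 76.3% of all called genes, and 0 of the list were called higher.

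**Figure D3:**
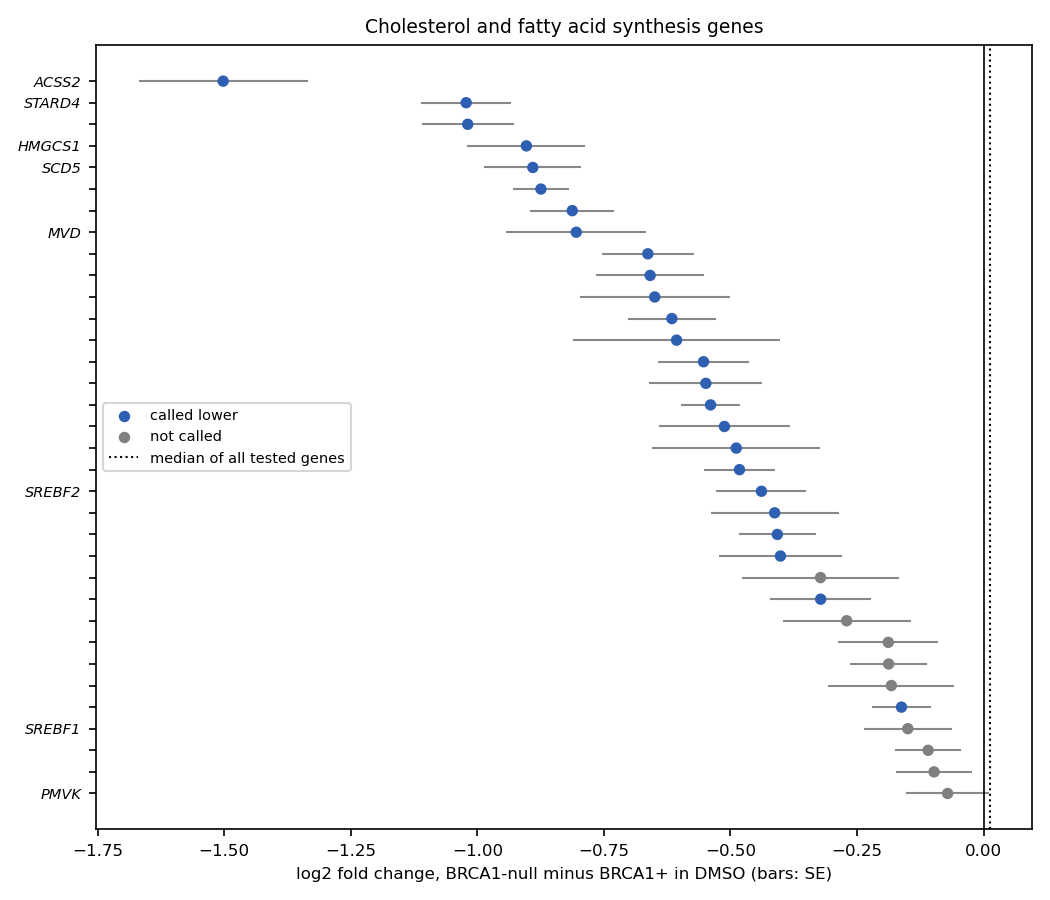
Log2 fold change (BRCA1-null minus BRCA1+, DMSO) with its SE for 34 of the 37 tested genes of cholesterol and fatty acid synthesis, with names for the genes given in the text; blue points were called lower and grey points were not called. Every point lies to the left of 0, ACSS2 farthest at -1.50 and PMVK nearest at -0.071, and the dotted line at 0.012 is the median of all tested genes.

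Promoter sequence was examined for this list because its members differed together. The 250 bases before the start site were taken from RefSeq (GRCh38.p14), which had an entry for 30 of the 37 symbols and for 11745 of all tested genes. The letters CCAAT, the motif of the factor NF-Y, which is known to act with the sterol-responsive factors, were present on either strand in 24 of the 30 (80.0%) and in 40.5% of all tested genes with an entry. Among the 21 genes called lower that had an entry, 18 held it. The letters TCACNCCAC, a strict form of the sterol response element, were found in 1 of the 30, SREBF2, and in 1.20% of all. A gene with several start sites counted once, when any of its windows held the letters, and the motifs do not overlap each other. A match describes these letters and says nothing of binding. The windows of 3 called members with a single start site are shown, read 5' to 3' on the strand of the gene with CCAAT, or its reverse complement ATTGG, in capitals. They were chosen from the members that held CCAAT, so its presence in these windows was fixed by the choice. STARD4 (chr5:111512536-111512785, minus strand) carries a sterol between membranes, SCD5 (chr4:82798797-82799046, minus strand) desaturates fatty acids and MVD (chr16:88663092-88663341, minus strand) is an enzyme of the mevalonate pathway.
STARD4: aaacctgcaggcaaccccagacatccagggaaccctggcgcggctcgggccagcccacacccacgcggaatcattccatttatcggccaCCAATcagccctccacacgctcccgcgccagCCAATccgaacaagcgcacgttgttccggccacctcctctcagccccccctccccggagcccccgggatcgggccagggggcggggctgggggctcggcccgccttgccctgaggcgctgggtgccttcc
SCD5: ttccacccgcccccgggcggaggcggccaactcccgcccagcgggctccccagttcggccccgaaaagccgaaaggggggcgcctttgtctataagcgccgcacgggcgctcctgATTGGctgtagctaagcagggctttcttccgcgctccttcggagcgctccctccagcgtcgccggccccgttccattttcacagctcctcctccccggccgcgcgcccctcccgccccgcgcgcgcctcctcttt
MVD: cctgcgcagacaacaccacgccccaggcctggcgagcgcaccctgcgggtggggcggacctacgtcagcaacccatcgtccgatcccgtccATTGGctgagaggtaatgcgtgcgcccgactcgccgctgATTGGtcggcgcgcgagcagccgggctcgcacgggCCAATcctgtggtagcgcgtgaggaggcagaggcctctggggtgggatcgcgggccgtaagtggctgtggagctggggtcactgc
The windows held 2, 1 and 3 copies. STARD4 fell by 1.02 ± 0.0886, SCD5 fell by 0.89 ± 0.0955 and MVD fell by 0.80 ± 0.138 on the log2 scale.

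Other parts of metabolism differed less. Genes of glycolysis and the hypoxia response were higher for 8 of 39 and lower for 16 (9 and 8 without replicates 1 and 2 of BRCA1+ control, 7 and 10 without those of BRCA1-null control). Upper-quartile scaling gave 11 in each direction. The decreases were led by EGLN3, an oxygen sensor, which fell by 1.46 ± 0.119, and EPAS1 (HIF-2 alpha), which fell by 1.25 ± 0.162. In the other direction, PFKM was higher by 1.04 ± 0.0887 and VEGFA by 0.92 ± 0.0790. The nuclear-encoded subunits of oxidative phosphorylation were higher for 13 of 81 and lower for 29, within -1.29 to 0.90 on the log2 scale. The 29 became 17 without replicate 2 of BRCA1+ control and 18 without replicate 2 of BRCA1-null control, where the 13 became 8. In the ATF4 and amino acid stress list, 11 of 39 were higher and 5 lower, with 4 higher without replicate 1 of BRCA1+ control and 5 without replicate 2 of BRCA1-null control. SLC7A8, an amino acid transporter, was its only member beyond a log2 difference of 1, falling from 38.0 and 30.3 CPM to 2.62 and 2.06 CPM (-3.88 ± 0.196). Among the aldo-keto reductases, aldehyde dehydrogenases and glutathione enzymes, 15 of 49 were higher (7 and 9 without replicates 1 and 2 of BRCA1+ control) and 13 lower, and AKR1C3, a steroid-reducing enzyme, rose from 0.225 and 0.305 CPM to 3.91 and 3.99 CPM. Ribosomal proteins of the cytosol (19 of 78 higher, 15 lower) and of mitochondria (13 of 76 higher, 14 lower) were near the background shares. So were the calls of metallothioneins (2 of 10 higher, 2 lower, with 4 lower without replicate 2 of BRCA1-null control and 1 higher without replicate 2 of BRCA1+ control). The metallothionein median was nonetheless -0.43, and it stayed between -0.59 and -0.34 in every alternative. Proteasome subunits were higher for 5 of 35 and lower for 11, a number that fell to between 4 and 7 when any 1 library was left out, and upper-quartile scaling gave 6 in each direction. The lower ribosomal proteins numbered 9 in each class without replicate 2 of BRCA1+ control, and 7 (cytosol) and 8 (mitochondria) without replicate 1 of BRCA1-null control.

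The genes closest to BRCA1's own function moved little. Of 36 BRCA1 partners and homologous recombination genes, 3 were higher and 10 lower, 36.1% called in all against 42.2% of the table, and no member reached a log2 difference of 1 in either direction. The 10 became 6 without replicate 1 of either group. BRCA1 itself is not counted in the list and differed by -2.14 ± 0.0862 (adjusted p 5.46e-07). BARD1, the ubiquitin ligase partner, fell from 20.5 and 19.2 CPM to 12.8 and 12.4 CPM (-0.65 ± 0.0892, adjusted p 4.12e-04), and the nuclease MRE11A fell by 0.55 ± 0.0590. RMI1, a helicase complex subunit, was higher by 0.64 ± 0.0973. BRCA2 stood at 53.6 to 64.0 CPM with no call (-0.06 ± 0.0925, adjusted p 0.619). Fanconi anaemia genes were higher for 3 of 17 (1 without replicate 1 of BRCA1+ control or replicate 2 of BRCA1-null control) and lower for 6.

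DNA replication genes were lower for 25 of 53 and higher for 5 (median -0.20), with GMNN (geminin), which limits origin licensing, falling from 88.2 and 94.4 CPM to 48.5 and 52.1 CPM. Mitotic genes were lower for 17 of 57 (9 without replicate 2 of BRCA1-null control) and higher for 6, with a median of -0.11, or -0.067 without chromosome 5. CDC25C, the phosphatase that activates CDK1, fell by 1.10 ± 0.108, and the kinesin KIF23 was higher by 0.44 ± 0.0660. Of the 17 lower mitotic genes, 5 lie on chromosome 5, CDC25C among them. G1 cyclins, CDK inhibitors and their partners were lower for 8 of 30 and higher for 2, or 6 and 5 with upper-quartile scaling, with the activator E2F2 falling by 1.30 ± 0.165 and cyclin D3 (CCND3) falling by 0.89 ± 0.103. In the BCL2 family, 3 of 19 were higher (1 without replicate 2 of BRCA1+ control, 5 with upper-quartile scaling) and 3 lower, and BIK, a killer protein of the BH3 class, rose from 1.35 and 1.29 CPM to 14.7 and 11.8 CPM (3.32 ± 0.189, adjusted p 3.24e-06).

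Chromatin enzymes were lower for 10 of 32 (6 without replicate 2 of either group) and higher for 3. DNMT3B, a DNA methyltransferase that sets new methylation, fell from 71.0 and 66.4 CPM to 24.3 and 24.9 CPM (-1.48 ± 0.0715, adjusted p 1.51e-06). DNMT1, which maintains methylation, was at 411 to 454 CPM and was not called (-0.10 ± 0.0567, adjusted p 0.201). HDAC9, a class IIa deacetylase, rose from 18.1 and 17.7 CPM to 58.2 and 44.8 CPM. EZH2, the methyltransferase of PRC2, was at 78.7 to 85.6 CPM and was not called (0.08 ± 0.0685, adjusted p 0.372).

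Transcription factor families were split. HOX genes were higher for 5 of 25 (3 without replicate 2 of BRCA1-null control) and lower for 7, with HOXD11 falling from 3.50 and 3.73 CPM to 0.615 and 0.534 CPM and HOXB2 rising by 1.38 ± 0.148. Of 86 developmental transcription factors, 19 were higher (12 without replicate 2 of BRCA1+ control) and 23 lower (15 when replicate 1 of BRCA1+ control was omitted, and 12 for replicate 2 of BRCA1-null control). TBX3, a T-box repressor, was higher by 5.21 ± 0.369, LHX1, a kidney and Mullerian duct factor, by 5.40 ± 0.497, and SOX2 fell from 33.5 and 25.3 CPM to 12.3 and 6.24 CPM. The 243 tested zinc finger genes of chromosome 19, many of them repressors of transposable elements, were called less often than the table as a whole (13 higher and 48 lower, 25.1% against 42.2%), and their median was -0.18 against -0.068 for the 1019 other genes of the chromosome. The 48 became 17 without replicate 2 of BRCA1+ control, and 27 and 25 without replicates 1 and 2 of BRCA1-null control. The 13 became 5, 3 and 4 without replicates 1 and 2 of BRCA1+ control and replicate 2 of BRCA1-null control.

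The ARMCX, GPRASP, BEX and TCEAL genes, related families that neighbour each other on the long arm of X (hg19, 100673251 to 102885876) and arose together in placental mammals, were higher in BRCA1-null cells for 18 of 20 tested members and lower for 0 (median 0.75). ARMCX1, a mitochondrial outer membrane protein of neurons, rose from 4.08 and 3.55 CPM to 13.3 and 13.4 CPM (1.81 ± 0.134, adjusted p 1.40e-05). BEX1, a signalling adaptor, rose from 0.275 and 0.458 CPM to 1.63 and 1.77 CPM, and NGFRAP1 (BEX3) rose from 51.3 and 49.7 CPM to 83.0 and 89.0 CPM. The members not called were BHLHB9 (0.21 ± 0.126, adjusted p 0.205) and TCEAL2 (1.89 ± 0.836, adjusted p 0.0948), the latter on at most 0.239 CPM. The 5 other tested genes between the first and last members were higher for 4, with a median of 0.72, and the 586 other tested genes of X had a median of 0.13. In entinostat 18 of the 20 were higher, 16 of them also called in DMSO.

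The position of called genes was followed across the genome in windows of 20 Mb with at least 20 tested genes. Of 156 windows, 11 had over 50% of their genes lower and 9 had over 50% higher in BRCA1-null cells. Every window of chromosome 5 from 60 to 180 Mb was among the former, with 61.1% to 69.5% of its genes lower (medians -0.50 to -0.66). Below 60 Mb the windows of that chromosome had 11.5% to 29.2% lower and 17.9% to 36.1% higher, so its decreases lay beyond that position. On chromosome 9, the windows of 0 to 20 and 20 to 40 Mb had 38 of 61 and 76 of 118 genes lower, with medians of -0.61 and -0.55. On chromosome 7, the window of 0 to 20 Mb had 66 of 103 genes higher and 0 lower (median 0.53). Chromosome 1 at 60 to 80 Mb (50 of 85 lower), chromosome 12 at 100 to 120 Mb (85 of 151 higher), chromosome 15 at 60 to 80 Mb (93 of 175 higher) and chromosome 21 at 0 to 20 Mb (13 of 22 higher, 0 lower) also stood apart. The chromosome 21 window holds overlapping copies of BAGE whose reads cannot be assigned singly, so its genes are not all separate measurements. On X, the windows of 80 to 100 and 100 to 120 Mb, where the ARMCX, GPRASP, BEX and TCEAL genes lie in the second, had 12 of 20 and 66 of 115 genes higher, with medians of 1.09 and 0.53.

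**Figure D4:**
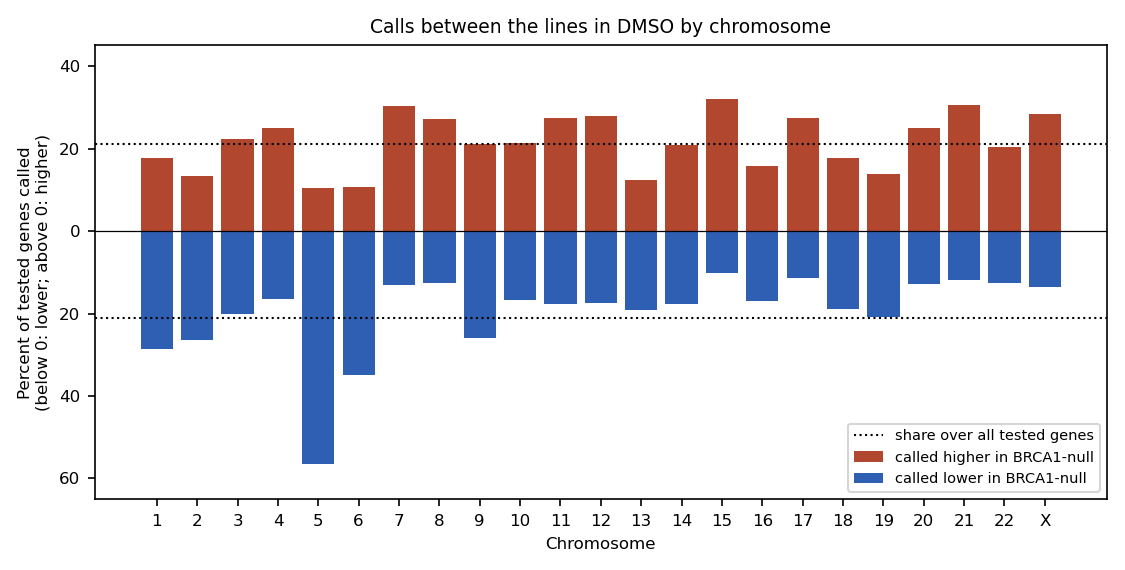
Percent of tested genes of each chromosome called higher (above 0, red) or lower (below 0, blue) in BRCA1-null cells, with dotted lines at the shares over all tested genes (21.1% and 21.0%). Chromosome 5 stands out with 56.6% of its genes lower, and chromosome 15 has the highest share of higher genes, 32.1%.

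Strongly on or off genes were defined as those with at most 3 counts in both libraries of one line and at least 1 CPM in both libraries of the other. There were 26, of which 19 were on in BRCA1-null cells and 7 in BRCA1+ cells. Folds are given as lower bounds against 3 counts per library. Since the definition fixes the difference, no test is read from it.

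Of the genes on in BRCA1-null cells only, ARMCX2 (X, hg19 100910268 to 100914876) of the family above had 2 and 1 counts in BRCA1+ and 673 and 795 counts in BRCA1-null libraries, at least 209.5-fold higher. COL22A1, a collagen of tissue junctions, had 0 and 0 counts against 689 and 745 (at least 205.5-fold). FOLR2, folate receptor beta, had 0 and 1 counts against 216 and 257 (at least 67.5-fold). These 3 stood well above the rest, whose mean levels in BRCA1-null cells ran from 1.13 to 2.64 CPM. Among them were CALB2 (calretinin, a calcium-binding protein also used as a mesothelial marker), CEACAM6 (an epithelial adhesion antigen), PIK3CG (the gamma catalytic subunit of PI3-kinase), LIN28B (an RNA-binding blocker of let-7 maturation), CALCRL (the receptor of adrenomedullin) and TH (tyrosine hydroxylase). TH, for example, had 1 and 0 counts against 56 and 58.

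Of the genes on in BRCA1+ cells only, PASD1 (X, hg19 150732007 to 150845211), a cancer-testis antigen, had 1911 and 2356 counts in BRCA1+ and 3 and 2 counts in BRCA1-null libraries, at least 818-fold lower in the latter. It was also the only 1 of the 11 tested cancer-testis genes that was lower, while 9 were higher, several of them overlapping copies of BAGE whose reads cannot be assigned singly. TSHR, the thyrotropin receptor, had 105 and 183 counts against 3 and 3, and SMR3B, a salivary secretory protein, 84 and 134 against 1 and 3. LMX1A, a LIM homeobox factor, had 51 and 60 counts against 3 and 1, and FOXD3, a forkhead factor of the neural crest, 44 and 50 against 3 and 2. In the 4 entinostat libraries, 10 of the 19 and 5 of the 7 met the same limits.

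**Figure D5:**
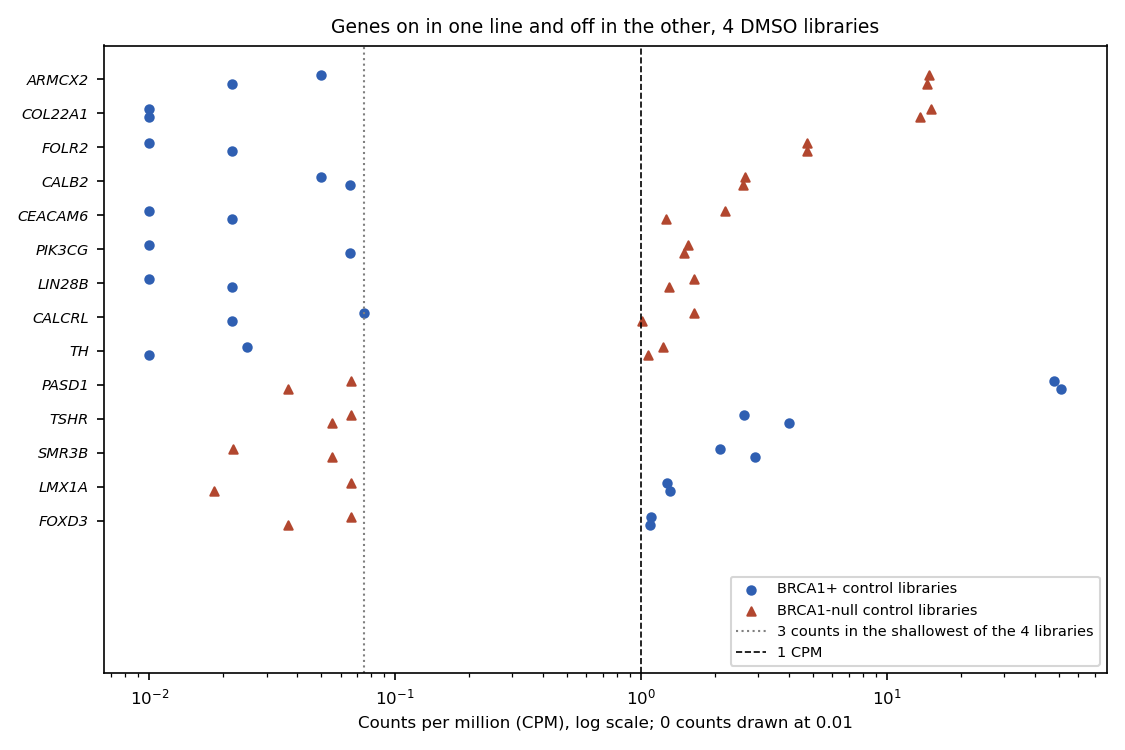
CPM (log scale, 0 counts drawn at 0.01) of 14 of the 26 on or off genes in each DMSO library; blue circles are BRCA1+ and red triangles BRCA1-null libraries. The dotted line marks 3 counts in the shallowest library (0.0750 CPM) and the dashed line 1 CPM, and for all 14 genes one line's points lie at or below the dotted line and the other's above the dashed line.

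The promoter windows of these genes were read for CpG dinucleotides, the sites at which vertebrate DNA is methylated. RefSeq had an entry for 11 of the 19 and 5 of the 7. Where a gene had several windows the richest was taken. The median was 8 CpG per 250 bases in genes on in BRCA1-null cells and 10 in genes on in BRCA1+ cells, against 22 over the tested genes with an entry, and the range in the first set was 1 to 33. Methylation was not measured in these libraries. The windows shown, with each CpG in capitals, were chosen among the genes with a single window, as the highest gene of each direction and those with the most and the fewest CpG: ARMCX2 (chrX:101659851-101660100, minus strand, 7 CpG), PASD1 (chrX:151563425-151563674, plus strand, 10 CpG), FOXD3 (chr1:63322317-63322566, plus strand, 24 CpG) and CALCRL (chr2:187448253-187448502, minus strand, 1 CpG), all in GRCh38.p14 and on the strand of the gene.
ARMCX2: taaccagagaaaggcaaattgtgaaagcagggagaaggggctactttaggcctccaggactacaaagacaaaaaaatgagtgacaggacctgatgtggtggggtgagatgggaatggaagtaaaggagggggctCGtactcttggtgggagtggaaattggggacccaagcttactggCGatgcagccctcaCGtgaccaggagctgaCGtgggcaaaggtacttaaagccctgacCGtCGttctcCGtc
PASD1: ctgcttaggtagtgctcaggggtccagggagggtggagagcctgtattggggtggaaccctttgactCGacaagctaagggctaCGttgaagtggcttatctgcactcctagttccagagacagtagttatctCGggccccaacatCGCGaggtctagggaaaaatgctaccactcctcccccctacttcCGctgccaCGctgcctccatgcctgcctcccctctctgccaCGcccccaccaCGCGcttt
FOXD3: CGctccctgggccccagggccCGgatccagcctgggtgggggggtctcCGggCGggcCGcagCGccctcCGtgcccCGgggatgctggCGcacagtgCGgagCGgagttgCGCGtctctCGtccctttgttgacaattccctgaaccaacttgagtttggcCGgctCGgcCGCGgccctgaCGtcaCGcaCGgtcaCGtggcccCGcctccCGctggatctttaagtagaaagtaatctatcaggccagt
CALCRL: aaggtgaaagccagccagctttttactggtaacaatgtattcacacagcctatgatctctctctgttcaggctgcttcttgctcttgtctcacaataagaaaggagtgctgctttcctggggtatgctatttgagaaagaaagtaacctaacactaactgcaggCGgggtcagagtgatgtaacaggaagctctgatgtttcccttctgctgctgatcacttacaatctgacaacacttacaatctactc
The genes present in one line only therefore had CpG-poor and CpG-rich windows among them.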

How the data were processed

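Poly(A) RNA of UWB1.289 cells was sequenced on an Illumina HiSeq instrument. The authors used TopHat for alignment to hg19 and NGSUtils for counting, and the deposited values are raw read counts per gene symbol, with lengths and hg19 positions. Strand and multi-mapping settings were not given in the sources used here, so overlapping, antisense and near-identical genes are uncertain. One row without a gene name held no counts and was left out. Of 25369 named genes, 17714 passed edgeR's expression filter. Counts were scaled by TMM and fitted in edgeR 4.0.16 (R 4.3.3) with glmQLFit over all 8 libraries in 4 groups of 2, leaving 4 residual degrees of freedom, and the line difference in DMSO was tested with glmQLFTest. P-values were adjusted by the Benjamini-Hochberg method over all tested genes, and a gene was called under 0.05. CPM are edgeR's library-scaled counts, computed with the TMM factors. Limits for 0 or 3 counts cover counting error only.

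In each of 46 lists, the 2 called members with the largest increase and the 2 with the largest decrease were eligible to be named, given a mean of at least 2 CPM and no overlap between the groups, with BRCA1, cell type markers, the 10 highest on or off genes of each direction and genes that define a pathway. COL6A1, LAMA3, LAMB3, VIM, the higher PCDHB genes, BHLHB9, TCEAL2 and the members of the on or off set beyond the highest 10 were named after their values were seen. The members and lists were chosen with earlier results of these data known. Lists are described by counts and medians. Promoter windows came from RefSeq (GRCh38.p14), matched by symbol. A gene was held to overlap another where their deposited spans met, leaving out spans of 2.5 Mb or more. Besides TIMP3, other named genes overlap another gene, among them FAS, SOX2, FGF2, PFKM, KCNIP1 and LHX1. Their counts may hold reads of the overlapping gene. Alternatives were DESeq2 1.42.0, other scaling factors and filters, a fit on the DMSO libraries, a replicate block, and leaving out each DMSO library. The procedure was tested on simulated counts. Some genes are not reported here.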

Additional observations from a re-analysis of the deposited data

How the results depend on the processing

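The number of genes called stood at 6567 with DESeq2's Wald test, 7461 with DESeq2 size factors, 7404 with upper-quartile factors, 6755 in a fit of the DMSO libraries alone, 7174 without a filter and 6937 with a stricter one, and ran from 5312 to 6346 when 1 DMSO library was left out. The genes called higher in BRCA1-null cells in DMSO (3745) ranged from 2487 to 3471 over those omissions, the lowest without replicate 2 of BRCA1+ control, while the lower ones stayed within 1.5 times. The 26 on or off genes depended on their limits: 9 with an off limit of 1 count, 89 with 10 counts, 48 with an on limit of 0.5 CPM, 8 with 2 CPM, and 15 when the entinostat libraries had to meet the limits too. With a replicate block 8956 genes were called. Deviations of same-numbered libraries correlated at 0.0523 to 0.287, all positive and not all over 0.1. The labels name no pairing, and whether same-numbered libraries shared a batch or culture was not tested. Of 199 named called genes, 177 kept the call in every alternative and 22 lost it in at least 1, among them CDH1, CDH2, MUC1, KRT8, COL1A2, LYZ, KDR and PMEL. The sign of the median was kept in every alternative by 35 of 46 lists. With 2 libraries per group, genes with few counts are limited most.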
